A study of Mus musculus with 12 samples.

Results

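Expression of 7 genes of cholesterol supply was followed across the 4 groups of the study: Hmgcs1, Idi1, Sqle, Lss, Cyp51, Dhcr7 and Insig1. They were chosen by name, as genes of the pathway, by a rule that uses no measured value but with earlier results of these data known, and are 7 of the 36047 genes in the deposited tables. 6 encode enzymes of cholesterol synthesis and 1, Insig1, encodes the protein that holds the pathway's transcription factor in check; no uptake receptor is among them, so receptors and carriers were read from a separate list. The libraries came from the dissected cortex of WT mice and of Gde2KO mice (Gde2-/-, a null allele not restricted to a cell type) at 4 and at 19 months of age, with 3 libraries in each of the 4 groups, and the study used male and female animals. The 4-month cortices were sequenced to look for pathways through which GDE2 affects nuclear transport and where TDP-43 lies in neurons, and the 19-month cortices for splicing defects. Gde2, listed as Gdpd5, encodes GDE2, a surface enzyme that cleaves the GPI anchor of other proteins. Since the 19-month columns show only the genotype, their libraries are lettered A, B and C within each group.

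Cholesterol does not cross the blood-brain barrier from the circulation in useful amounts, so the brain makes its own, in astrocytes, in neurons and above all in oligodendrocytes while they lay down myelin. When sterols in the endoplasmic reticulum run low, SCAP carries the transcription factor SREBP2 to the Golgi, where it is cleaved and freed to enter the nucleus. SREBP2 then binds sterol regulatory elements, often beside a CCAAT box bound by NF-Y, in the promoters of nearly every synthesis enzyme. When sterols are plentiful, INSIG proteins keep SCAP in the endoplasmic reticulum, and because Insig1 is itself an SREBP2 target its message moves with those of the enzymes.

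On GRCm38, as annotated in GENCODE vM21, the genes lie on 5 chromosomes. Hmgcs1 is at chr13:119690379-119708260 and Idi1 at chr13:8885501-8892451. Sqle is at chr15:59315077-59331192, Lss at chr10:76531588-76557138 and Dhcr7 at chr7:143823145-143848410. Cyp51 at chr5:4081145-4104746 is on the minus strand, and Insig1 at chr5:28071363-28078662, like the other genes, is on the plus strand.

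Promoter windows of RefSeq on GRCm38.p6, each 250 bases before to 50 after a start site, were found for 6 of the 7 genes in 8 windows; Sqle had no entry. The 3 stretches here are shown because their matches lie before the start of transcription in both RefSeq and GENCODE, and none overlaps an annotated exon. They run 5′ to 3′ along the gene, with capitals for TCACNCCAC, the core of a sterol regulatory element, and for CCAAT or its reverse complement ATTGG. The Hmgcs1 stretch is chr13:119690101-119690350, the Lss stretch chr10:76531355-76531587 and the Insig1 stretch chr5:28071162-28071362, all on the plus strand.
Hmgcs1: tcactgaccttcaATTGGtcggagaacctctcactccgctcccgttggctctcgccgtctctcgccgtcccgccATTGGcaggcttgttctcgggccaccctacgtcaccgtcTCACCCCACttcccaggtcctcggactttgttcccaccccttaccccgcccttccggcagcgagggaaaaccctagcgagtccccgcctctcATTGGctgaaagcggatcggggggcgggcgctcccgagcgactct
Lss: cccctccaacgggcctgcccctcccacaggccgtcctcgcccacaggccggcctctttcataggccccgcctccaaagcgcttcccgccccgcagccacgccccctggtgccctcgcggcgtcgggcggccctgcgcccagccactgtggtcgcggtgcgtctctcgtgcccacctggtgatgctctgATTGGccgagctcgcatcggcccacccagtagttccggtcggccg
Insig1: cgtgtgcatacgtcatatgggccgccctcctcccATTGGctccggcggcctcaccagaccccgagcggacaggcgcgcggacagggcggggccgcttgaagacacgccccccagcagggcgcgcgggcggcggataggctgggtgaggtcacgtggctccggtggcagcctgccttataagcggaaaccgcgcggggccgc

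In a search of both strands, TCACNCCAC was found in 1 of the 8 windows, that of Hmgcs1, and in 1.24% of the 32851 windows of all genes. CCAAT was found in a window of each of the 6 genes, in 6 of the 8 windows, and in 37.4% of all windows. The motifs do not overlap each other. Hmgcs1 held 4 copies of CCAAT and Idi1 and Dhcr7 held 2 each, and in Cyp51, Dhcr7 and Idi1 the copies lie inside the gene as GENCODE draws it, so their stretches are not shown. These are matches of letters and not measured binding sites.

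Library totals set how far the values can be read. The deposited values correspond to 46434270 to 59728494 estimated reads at 4 months and to 36915259 to 44604721 at 19 months, except for WT library A (6734475) and Gde2KO library A (3707928) at 19 months. Gdpd5 was lower in every Gde2KO library than in every WT library of its age, with 403 to 585 normalized counts against 685 to 1199 at 4 months and 441 to 560 against 952 to 1129 at 19 months. The median gene was higher in Gde2KO at 4 months by 0.11 on the log2 scale, and Gde2KO libraries 1 and 3 had median ratios to the mean library of 1.08 and 1.17. Neuronal markers were detected in every library, with no marker at 0, but the 4-month dissections were not alike. Hippocampal markers summed to 30170 and 27800 normalized counts in WT libraries 1 and 2 against 6269 to 9211 in the other 4 libraries of that age. Striatal markers summed to 8171 and 6255 in the same 2 libraries against 35510 to 94780 in the other 4. At 19 months hippocampal markers summed to 5304 to 5601 in WT libraries and to 6960 to 8000 in Gde2KO libraries. Striatal markers summed to 9133 to 11890 in WT and to 11130 to 25090 in Gde2KO at that age. Of the 10 oligodendrocyte markers, 10 were higher in Gde2KO at each age, with a median log2 difference of 0.27 at both. The part of tissue region or cell content in the genotype comparisons was not tested.

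All 7 genes were well detected in every library, and Hmgcs1, the synthase that makes HMG-CoA for the mevalonate pathway, was the most abundant. On the per-length scale of normalized TPM, the mean over the 12 libraries was 157 for Hmgcs1, 57.8 for Insig1, 44.2 for Sqle, 35.1 for Idi1, 29.5 for Cyp51, 23.5 for Dhcr7 and 18.4 for Lss. Hmgcs1 stood above Insig1, Sqle above Idi1 and Idi1 above Cyp51 in 12 of 12 libraries. Insig1 stood above Sqle in 10 of 12, and Cyp51 above Dhcr7 and Dhcr7 above Lss in 11 of 12, so these neighbours exchanged places in single libraries.

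For Sqle, Insig1, Idi1 and Cyp51, a single protein-coding transcript held on average at least 93.9% of the gene's normalized TPM in every group. For Dhcr7 the leading transcript held 74.5% to 80.4% in the group means. Hmgcs1 was divided between a 10-exon transcript and an 11-exon transcript. The 10-exon form held 75.4% ± 3.10 (SD, n = 3) in WT and 76.9% ± 1.41 in Gde2KO at 4 months, and 67.9% ± 1.09 in WT and 75.7% ± 3.78 in Gde2KO at 19 months. The 19-month WT cortex thus gave the lowest share of this form, a difference that was not tested. Lss differed from the others, since its 22-exon protein-coding transcript held only 21.1% to 27.5% in the group means and a retained-intron transcript of 2 exons held 19.6% to 24.6%. On this per-length scale most of the Lss signal was thus not its full-length coding transcript.

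WT and Gde2KO were first compared at 4 months, the age at which the study looked for early pathway changes. None of the 7 genes passed the thresholds, an adjusted p under 0.1 and a natural-log effect above 0.5, which is 0.721 on the log2 scale (limma, Benjamini-Hochberg adjustment over 19035 genes). Across all genes tested, 24 passed, which is 0.126%. At an unadjusted p under 0.05 the count was also 0 of 7, against 2025 of all genes. Gdpd5, the gene inactivated in Gde2KO mice, was not among the 24. Its log2 difference was -0.85 (SE 0.25, unadjusted p 0.0102, adjusted p = 0.463 in limma). A gene that did not pass at this age can therefore still differ between the genotypes. In bulk tissue, fewer cells that express a gene cannot be told apart from less RNA in each of them.

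Hmgcs1 measured 13670, 8614 and 8839 normalized counts in WT libraries 1, 2 and 3, and 11180, 9566 and 12840 in Gde2KO libraries 1, 2 and 3. The means were 10370 ± 2854 (SD, n = 3) and 11190 ± 1638, a log2 difference of 0.13 (SE 0.21, adjusted p = 0.765). WT library 1 was above every Gde2KO library and WT libraries 2 and 3 were below every one, so the spread among WT animals spanned the whole Gde2KO range.

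Of the next enzymes of the pathway, Idi1, the isomerase that turns isopentenyl diphosphate into its reactive partner, measured 2789, 1767 and 1643 in WT and 2058, 1963 and 3024 in Gde2KO (log2 difference 0.20, SE 0.25, adjusted p = 0.701). Sqle, the epoxidase that commits squalene to sterols and a slow step of the pathway, measured 3362, 2170 and 1928 in WT and 2562, 1984 and 2923 in Gde2KO (0.03, SE 0.23, adjusted p = 0.960). In both, WT library 1 and Gde2KO library 3 were the highest libraries of this age.

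Of the sterol-ring enzymes, Lss, which closes the ring to lanosterol, measured 1523, 1171 and 1175 in WT and 1245, 1399 and 1395 in Gde2KO (log2 difference 0.07, SE 0.15, adjusted p = 0.824). Cyp51, which removes the 14α-methyl group of lanosterol, measured 2738, 1730 and 2013 in WT and 2140, 1970 and 3117 in Gde2KO (0.15, SE 0.23, adjusted p = 0.749). Dhcr7, the reductase that makes cholesterol from 7-dehydrocholesterol, measured 1245, 937 and 825 in WT and 1040, 942 and 1100 in Gde2KO (0.05, SE 0.17, adjusted p = 0.887). The groups overlapped in each of the 3.

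Insig1, the sterol-dependent brake on SREBP2, gave the largest difference of the 7 at this age. It measured 3015, 1917 and 2478 normalized counts in WT and 2865, 2906 and 3761 in Gde2KO, with means of 2470 ± 549 (SD, n = 3) and 3177 ± 506. The log2 difference of 0.38 (SE 0.19, 95% interval -0.07 to 0.82) had an unadjusted p of 0.0893 and an adjusted p of 0.479 in limma. WT library 1 lay above Gde2KO libraries 1 and 2, so the groups overlapped here too, as they did for all 7 genes, while 15.4% of all genes had no overlap. An exact two-sided permutation test of each gene gave p from 0.3 to 0.9, where the smallest p that 3 against 3 allows is 0.1.

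All 7 log2 differences were above 0, with a median of 0.13, close to the 0.11 of all genes tested. With each library rescaled by its median ratio, 4 of the 7 stayed above 0 (Hmgcs1, Insig1, Idi1 and Cyp51) and 3 were below it, and Insig1 had a difference of 0.27 (adjusted p = 0.533). The upper ends of the 95% intervals of Insig1 (0.82) and Idi1 (0.76) lie past the effect threshold, so with 3 libraries a group a change of that size in these genes lies within the error.

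**Figure D1:**
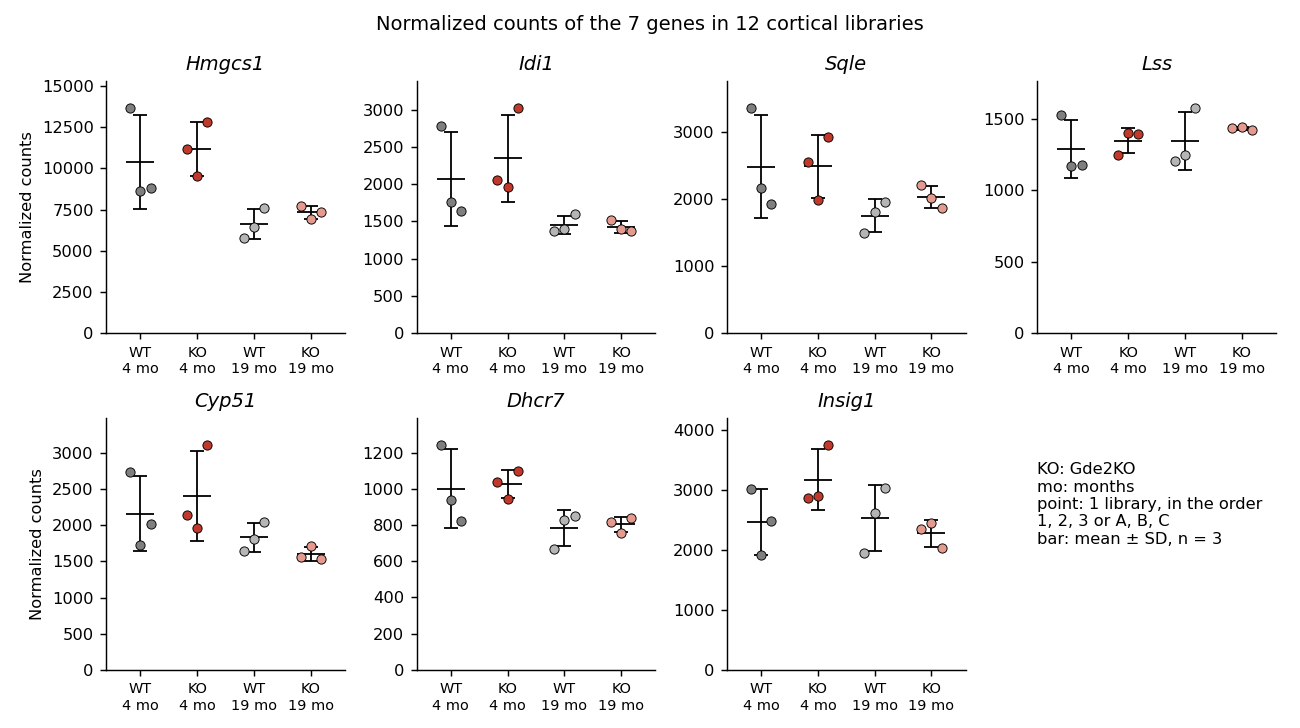
Normalized counts (vertical axes, from 0) of the 7 genes in each library, with groups along the horizontal axis, points for libraries and bars for the mean ± SD (n = 3). Several of the 7 genes have widely spread 4-month points in both genotypes, as for Sqle, where WT libraries ran from 1928 to 3362 and Gde2KO libraries from 1984 to 2923. The 4-month Gde2KO points of Lss (1245 to 1399) and Dhcr7 (942 to 1100) lie closer together. The 19-month means lie below the 4-month means of the same genotype, except for Lss in both genotypes and Insig1 in WT.

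At 19 months, when the study looked for splicing defects, the genotypes again gave no called member, with 0 of 7 against 18 of 18583 genes, or 0.0969% (limma). Gdpd5 was among the 18 (log2 difference -1.11, SE 0.115, adjusted p = 0.0111). The count at an unadjusted p under 0.05 was 0 of 7, against 1285 of all genes. Adjusted p ran from 0.712 for Cyp51 to 0.952 for Idi1, and the libraries of the genotypes overlapped for all 7 genes, while they did not overlap for 14.2% of all genes. The 7 differences fell on both sides of 0, with a median of 0.05 against -0.02 for all genes tested.

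Sqle had the largest difference at this age, with 1488, 1815 and 1964 normalized counts in WT libraries A, B and C and 2205, 2019 and 1872 in Gde2KO libraries A, B and C (log2 difference 0.22, SE 0.11, adjusted p = 0.721). Cyp51 had the most negative, with 1648, 1806 and 2048 in WT and 1555, 1717 and 1539 in Gde2KO (-0.19, SE 0.09, adjusted p = 0.712). The highest Sqle value and the lowest both came from the libraries of low depth, Gde2KO A and WT A.

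Hmgcs1 measured 5771, 6450 and 7570 in WT and 7705, 6952 and 7329 in Gde2KO (log2 difference 0.16, SE 0.09, adjusted p = 0.734). Insig1 measured 1957, 2615 and 3037 in WT and 2355, 2449 and 2029 in Gde2KO (-0.14, SE 0.15, adjusted p = 0.803). In Insig1, Idi1, Lss, Dhcr7 and Cyp51, WT library C was the highest library of this age.

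Idi1 measured 1368, 1394 and 1597 in WT and 1521, 1397 and 1368 in Gde2KO (log2 difference -0.02, SE 0.08, adjusted p = 0.952). Lss measured 1202, 1249 and 1575 in WT and 1434, 1442 and 1421 in Gde2KO (0.10, SE 0.10, adjusted p = 0.780). Dhcr7 measured 668, 829 and 851 in WT and 820, 759 and 838 in Gde2KO (0.05, SE 0.11, adjusted p = 0.908). The Gde2KO values of Lss were within a factor of 1.02 of each other, and the WT values within 1.31.

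The 95% intervals of the 7 genes at 19 months lay between -0.48 and 0.47, all inside the effect threshold of 0.721. The mean log2 difference over the 7 genes was 0.03, and -0.07 without WT library A, so its sign rested on that library. The difference between the ages in the effect of genotype was tested as an interaction over the 12 libraries. It gave 0 of 7 genes at an adjusted p under 0.1, against 9 of 18731 genes, or 0.048%, and 0 of 7 at an unadjusted p under 0.05, against 2408 of all genes. Insig1 came closest, with -0.51 (SE 0.27, unadjusted p 0.0785, adjusted p = 0.414), being higher in Gde2KO at 4 months and lower at 19 months, neither beyond the spread between libraries. With array quality weights, whose estimation did not converge in every fit, 2 of the 7 genes passed, Insig1 and Cyp51, against 46.7% of all genes.

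**Figure D2:**
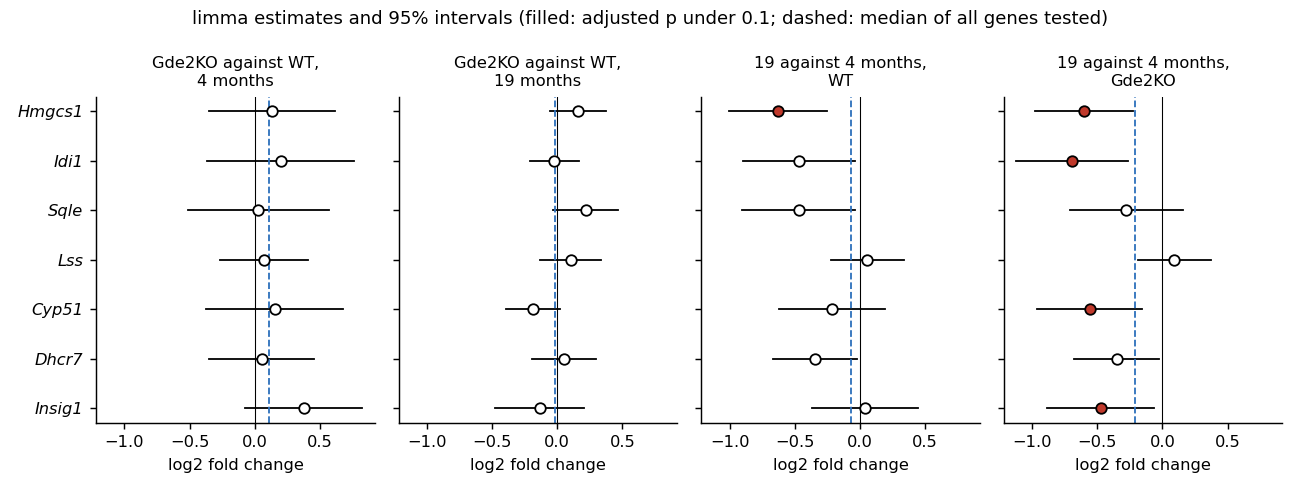
Log2 fold changes from limma (horizontal axes) with 95% intervals for the 7 genes (rows) in 4 comparisons, filled where the adjusted p was under 0.1, with the median of all genes tested as a dashed line. Both genotype panels hold open points only, Hmgcs1 is filled in the WT age panel, and Hmgcs1, Idi1, Cyp51 and Insig1 are filled in the Gde2KO age panel.

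The 7 genes moved together from library to library. Each value was taken on the log2 scale as its deviation from the mean of the 6 libraries of its age, which leaves out the difference between ages. At 4 months the mean deviation of the 7 genes was 0.31 in WT library 1, -0.27 in WT library 2 and -0.25 in WT library 3, and 0.01, -0.10 and 0.31 in Gde2KO libraries 1, 2 and 3. At 19 months it was -0.21, -0.01 and 0.18 in WT libraries A, B and C, and 0.06, 0.02 and -0.04 in Gde2KO libraries A, B and C. High and low libraries thus occurred within a genotype: at 4 months WT library 1 was level with Gde2KO library 3, the highest, while WT library 2 was the lowest, and at 19 months the lowest and the highest library were both WT. In WT library 1, each of the 7 genes was above the mean of its age, and in WT libraries 2 and 3 each was below it.

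Between the highest and the lowest 4-month WT library, Sqle differed by a factor of 1.74, Idi1 by 1.70, Hmgcs1 by 1.59, Cyp51 by 1.58, Insig1 by 1.57, Dhcr7 by 1.51 and Lss by 1.30. The median SD of the 7 genes in this group was 0.34 on the log2 scale, against 0.13 for all genes with a mean of at least 100 normalized counts. It was 0.20 against 0.10 in 19-month WT, 0.22 against 0.21 in 4-month Gde2KO and 0.08 against 0.10 in 19-month Gde2KO. The 7 genes were thus more variable than the median gene among WT libraries and about as variable as it among Gde2KO libraries. The difference in spread between genotypes was not tested. These SDs were taken without rescaling, and the median ratios of 4-month Gde2KO libraries 1, 2 and 3 were unequal (1.08, 0.995 and 1.17).

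Across the 21 pairs of the 7 genes, Pearson r over the 12 libraries ran from 0.55 to 0.94 with a median of 0.73, as a description without a test, since all values come from the same libraries. Hmgcs1 and Sqle were the closest pair (r = 0.94, Spearman rho 0.89) and Sqle and Insig1 the least close (r = 0.55, rho 0.53). The median r was 0.81 within the 4-month libraries and 0.59 within the 19-month libraries. Without 4-month WT library 1 and Gde2KO library 3, the 2 in which the mean deviation was largest, it was 0.60, and the lowest pair fell to 0.11. With deviations taken from the mean of each group, so that genotype was left out as well, the median r was 0.80.

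**Figure D3:**
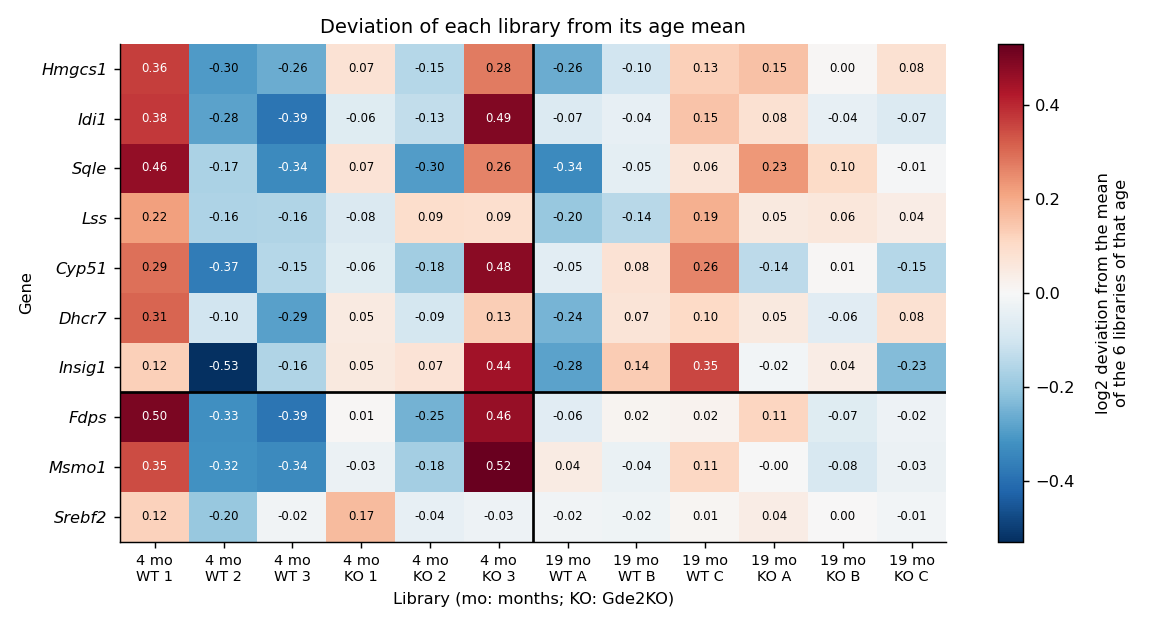
Log2 deviation of each library (columns) from the mean of its age for the 7 genes (upper rows) and for 3 further genes of the pathway (lower rows), with red above the mean and blue below it. The columns of 4-month WT library 1 and Gde2KO library 3 are red in all 7 genes and those of WT libraries 2 and 3 blue, and Fdps and Msmo1 take the same colours, while Srebf2 stays between -0.20 and 0.17.

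Among the genes most like the 7, out of 12962 others with a mean of at least 100 normalized counts, were 2 further enzymes of cholesterol synthesis. These were Fdps, which makes farnesyl diphosphate, with r = 0.91 against the mean deviation of the 7 genes, and Msmo1, a C4-methyl sterol oxidase, with 0.89. Neither was used to choose the 7. Outside the pathway, r was 0.92 for Txnrd3, a thioredoxin reductase, 0.91 for Rab40b, a small GTPase, 0.91 for Erich1, 0.91 for Taldo1, transaldolase of the pentose phosphate pathway, 0.91 for Plaa and 0.88 for Rprm. At 19 months alone r was 0.53 for Fdps and 0.24 for Msmo1, against 0.97 for Erich1 and 0.96 for Rprm.

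All genes shared some of this movement, with a median r of 0.24 between all other genes and the mean of the 7. With each library rescaled by its median ratio, an alternative chosen after the data were seen, that median was 0.02, the median r between the 7 genes was 0.66, and the mean deviation of Gde2KO library 3 at 4 months went from 0.31 to 0.14 while that of WT library 1 went from 0.31 to 0.35.

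The 14 other enzymes of cholesterol synthesis had a median r of 0.82 with the mean of the 7 genes, and 8 of the 14 had r of at least 0.8, against 71 (0.548%) of the 12962 genes. Pmvk (0.61), Ebp (0.32) and Tm7sf2 (0.30) followed least. The 11 genes of uptake and intracellular transport had a median of 0.18, with Stard4, a sterol carrier, at 0.76, but Npc1 at -0.63 and Lrp1 at -0.60. The median was 0.24 for the 8 genes of SREBP processing, where Srebf2 itself had 0.53 and Insig2 0.53, 0.48 for the 10 genes of fatty acid synthesis and -0.10 for the 9 of efflux and turnover. The enzymes therefore moved with the 7 genes to a degree that most other lipid genes did not show in these libraries.

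Markers of cell types and regions followed the 7 genes less closely, with median r of 0.35 for neurons, 0.34 for microglia, 0.25 for oligodendrocytes, 0.22 for astrocytes, 0.06 for hippocampus, -0.09 for endothelial cells, -0.10 for striatum and -0.11 for choroid plexus. Only markers with a mean of at least 100 normalized counts were used, which left 6 of 8 for hippocampus and 2 of 5 for choroid plexus. WT libraries 1 and 2, both high in hippocampal markers, lay near opposite ends of the 4-month range of the 7 genes. The oligodendrocyte score, the mean log2 deviation of 10 markers, was -0.24, -0.26 and 0.11 in 4-month WT libraries 1, 2 and 3. It was 0.11, 0.04 and 0.25 in 4-month Gde2KO libraries 1, 2 and 3. At 19 months it was -0.30, -0.26 and 0.18 in WT libraries A, B and C, and 0.34, -0.06 and 0.09 in Gde2KO libraries A, B and C. The part of tissue region or of these cells in the movement of the 7 genes was not tested. Without 4-month WT library 1 and Gde2KO library 3, the median r was 0.55 for oligodendrocytes and 0.53 for the other synthesis enzymes, against 0.14 for all other genes.

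**Figure D4:**
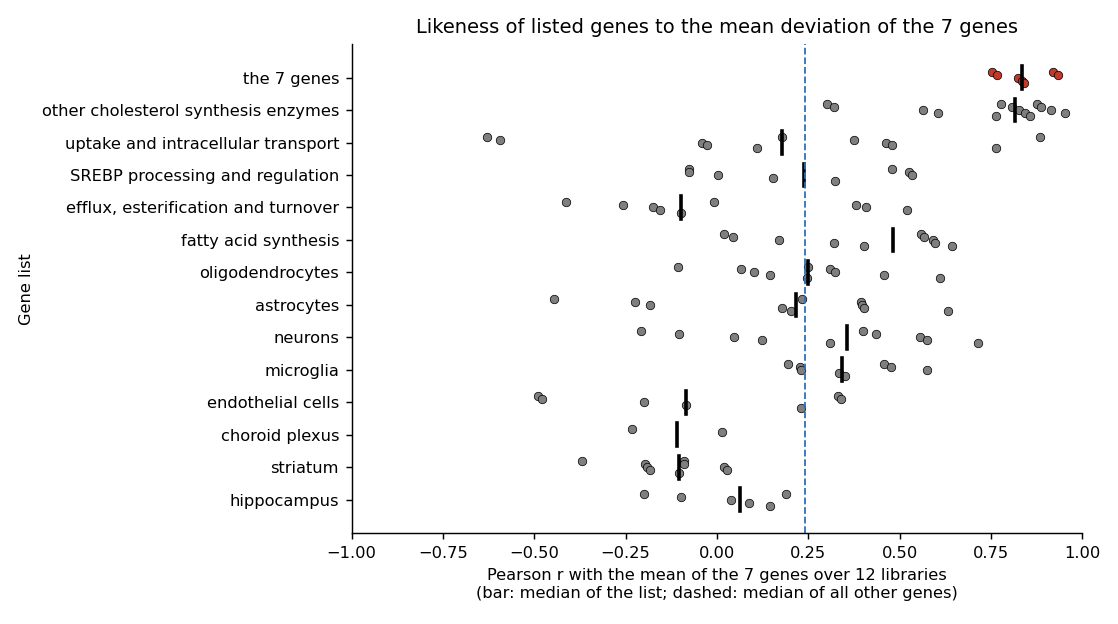
Pearson r of each gene (point) with the mean deviation of the 7 genes over the 12 libraries (horizontal axis), by gene list (rows), with the median of each list as a bar and the median of all other genes, 0.24, as a dashed line; each of the 7 genes is set against the mean of the other 6. The 7 genes lie between 0.75 and 0.93, most other synthesis enzymes lie with them, and the remaining lists are spread widely around the dashed line.

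The rule also sets the ages side by side, and here the mean levels of most of the 7 were lower at 19 months. Age came with other animals, other libraries and, in 1 library of each genotype, far lower depth, and these cannot be told apart from age. Markers of tissue region differed between the ages too, and this likewise cannot be told apart from age. The 8 hippocampal markers had a median log2 difference with age of -2.03 in WT and 0.04 in Gde2KO. For the 9 striatal markers it was -0.95 and -1.92. None of the 7 genes passed both thresholds in WT or in Gde2KO, against 13.7% and 11.9% of 18731 genes (limma, 4 groups). At the adjusted p alone, 1 gene was lower at 19 months in WT and 4 were lower in Gde2KO, where 15.1% and 24.9% of all genes were lower by that rule.

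Hmgcs1 had the largest difference in WT, with a mean of 10370 ± 2854 normalized counts (SD, n = 3) at 4 months and 6597 ± 909 at 19 months, and a log2 difference of -0.63 (SE 0.17, adjusted p = 0.0272). Every 19-month WT library of Hmgcs1 lay below every 4-month one. In Gde2KO the means were 11190 ± 1638 and 7329 ± 376 (-0.60, SE 0.17, adjusted p = 0.0304), again without overlap. Idi1 went from 2348 ± 587 to 1429 ± 81.1 in Gde2KO (-0.69, SE 0.20, adjusted p = 0.0303) and from 2067 ± 629 to 1453 ± 125 in WT (-0.47, SE 0.20, adjusted p = 0.114). Its libraries did not overlap between ages in either genotype.

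Cyp51 went from 2409 ± 619 to 1604 ± 98.6 in Gde2KO (log2 difference -0.56, SE 0.19, adjusted p = 0.0509) and from 2160 ± 520 to 1834 ± 202 in WT (-0.22, adjusted p = 0.440). Insig1 went from 3177 ± 506 to 2278 ± 220 in Gde2KO (-0.47, SE 0.19, adjusted p = 0.0893) and from 2470 ± 549 to 2537 ± 545 in WT (0.04, adjusted p = 0.902). That the 2 genotypes differed in these genes with age was not shown, since the interaction had an adjusted p of 0.538 for Cyp51 and 0.414 for Insig1.

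The remaining 3 genes did not pass at the adjusted p in either genotype. Sqle had -0.47 in WT (SE 0.20, adjusted p = 0.117) and -0.28 in Gde2KO (adjusted p = 0.323). Dhcr7 had -0.34 in WT (SE 0.15, adjusted p = 0.126) and -0.35 in Gde2KO (adjusted p = 0.111). Lss alone was not lower, with 0.06 in WT (adjusted p = 0.782) and 0.09 in Gde2KO (adjusted p = 0.631). Libraries of the ages did not overlap, with 19 months lower, for Hmgcs1 and Idi1 in WT, 2 of 7, where the share of all genes was 26.7%. In Gde2KO this held for Hmgcs1, Idi1, Cyp51, Insig1 and Dhcr7, 5 of 7 against 29.9%, and Lss was higher without overlap, as were 11.3% of all genes.

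The median difference of the 7 genes with age was -0.34 in WT and -0.47 in Gde2KO, and that of all genes was -0.07 and -0.21. With rescaling by median ratio, Hmgcs1 kept an adjusted p under 0.1 in both genotypes (0.0227 and 0.0693) and Idi1 in Gde2KO (0.0561), while Cyp51 (0.107) and Insig1 (0.235) did not. WT library 1 weighed on the WT values, since without it Hmgcs1 had an adjusted p of 0.0924 and without both WT libraries 1 and 2 of 0.296. Markers of oligodendrocytes were lower at 19 months as well: 4 of 10 passed both thresholds in WT, among them Ugt8a, Opalin and Mog, and 5 of 10 in Gde2KO, among them these genes and Mal, 10 of 10 were below 0 in both, and their summed counts ran from 119200 to 166500 at 4 months and from 85300 to 129700 at 19 months. The part of these cells in the values of the 7 genes was not tested.

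Among the 14 other synthesis enzymes, 0 passed the genotype tests at 4 and 19 months and in the interaction, 0 passed with age in WT and 1 with age in Gde2KO. That gene was Msmo1, with 3175 ± 854 normalized counts (SD, n = 3) at 4 months and 1845 ± 51.5 at 19 months in Gde2KO (log2 difference -0.75, SE 0.19, adjusted p = 0.0214).

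All 14 enzymes were above 0 in the 4-month genotype difference (median 0.20) and 3 of 14 at 19 months (median -0.06). The median of all genes tested was 0.11 at 4 months and -0.02 at 19 months. With age the medians of the 14 enzymes were -0.12 in WT and -0.34 in Gde2KO, against -0.07 and -0.21 for all genes.

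Among the 11 genes of uptake and transport, 0 passed for genotype at either age or for the interaction. Lrp1, an abundant apolipoprotein E receptor, had 0.51 with age in Gde2KO (SE 0.13, adjusted p = 0.0201), below the effect threshold, and Lrp8 had -0.36 for genotype at 4 months (adjusted p = 0.463).

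None of the 8 genes of SREBP processing passed in any comparison. Srebf2 ranged over 6881 to 8865 normalized counts at 4 months and over 8866 to 9241 at 19 months, and its genotype differences were 0.06 (adjusted p = 0.832) and 0.02 (adjusted p = 0.906). Scap had -0.05 (adjusted p = 0.840) and 0.03 (adjusted p = 0.892) for genotype at 4 and 19 months. Insig2, the sterol sensor that SREBP2 does not induce, had 0.14 at 4 months (adjusted p = 0.656) and -0.01 at 19 months (adjusted p = 0.979).

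Of the 9 genes of efflux and turnover, 0 passed for genotype or the interaction. With age in WT, Cyp27a1, a sterol 27-hydroxylase, rose from 76.2 ± 24.6 to 159 ± 32.7 normalized counts (log2 difference 1.08, SE 0.27, adjusted p = 0.0178) and Cyp7b1, an oxysterol 7α-hydroxylase, fell from 509 ± 200 to 204 ± 13.3 (-1.23, SE 0.27, adjusted p = 0.0108). Cyp7b1 also fell with age in Gde2KO (-0.92, SE 0.27, adjusted p = 0.0329). Apoe and Cyp46a1, the most abundant of the list, had 0.28 (adjusted p = 0.523) and 0.45 (adjusted p = 0.463) for genotype at 4 months, and 0.19 (adjusted p = 0.723) and -0.01 (adjusted p = 0.975) at 19 months. None of the 10 genes of fatty acid synthesis passed in any comparison. Scd2 and Fasn, the most abundant of them, had -0.01 (adjusted p = 0.978) and -0.19 (adjusted p = 0.552) for genotype at 4 months, and 0.20 (adjusted p = 0.614) and 0.19 (adjusted p = 0.646) at 19 months.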

How the data were processed

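Cortical polyA RNA was sequenced as paired-end libraries, and groups were taken from the sample labels. The submitters' notes list bcl2fastq 2.17, Trimmomatic 0.36 and STAR 2.5.2b, and Kallisto and Sleuth for expression on the GRCm38 transcriptome. The authors deposited transcript tables of signal values: estimated counts divided by a library size factor (normalized counts) and TPM divided likewise (normalized TPM). Only 46.7% to 62.9% of a library's detected genes gave whole reads within 0.01, so no count model was used. Kallisto divides reads between near-identical transcripts, which can blur genes with close copies.

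Transcripts (118489, of which 1673 without a gene were left out) were summed to genes. Genes with at least 5 normalized counts in 47% of the libraries fitted were tested with limma 3.58.1 (R 4.3.3), with an intensity trend, on log2 values with a pseudocount of 0.5, so fold changes are on that scale. Genotype was fitted within each age, and age and the interaction over all 12 libraries. p-values measure the spread between these libraries. Single values used exact permutation tests (scipy 1.17.1). Named genes were the 7, the most abundant 2 and every called gene of each lipid list, Srebf2 and Insig2, and the 10 genes most like the 7; some of these are not reported here. The members and lists were chosen with earlier results of these data known. The statistics were tested on simulated data. Alternatives varied pseudocount, filter, scaling, trend, weights, thresholds, value, block and libraries.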

Additional observations from a re-analysis of the deposited data

How the results depend on the processing

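Of the 7 genes, 0 passed for genotype at 4 or at 19 months under each alternative run, including other pseudocounts, filters, scalings, thresholds, array weights, sums of normalized TPM and each library left out in turn. With the replicate block at 4 months the count was also 0; the replicate numbers did not pair the libraries, since same-numbered WT and Gde2KO libraries correlated at 0.06, 0.01 and -0.05. Leaving out 4-month WT library 1 and Gde2KO library 3 together, chosen after the data were seen, gave 0 for genotype at 4 months and for the interaction. With array quality weights, whose estimation did not converge in every fit, 2 genes passed for the interaction, Insig1 (-0.74, adjusted p = 0.00556) and Cyp51 (-0.42, adjusted p = 0.0437), where 46.7% of all genes passed, against 0.048% without the weights. Over all alternatives the adjusted p of the interaction ran from 0.00556 to 0.873 for Insig1 and from 0.0437 to 0.873 for Cyp51. For genotype at 4 months the same weights called 15.4% of all genes against 0.126%, and gave adjusted p-values of 0.003 for Insig1 (0.47), 0.0268 for Hmgcs1 (0.29) and 0.0934 for Cyp51 (0.21), each below the effect threshold of 0.721. The cause was not tested. With age, the adjusted p alone gave 1 gene in WT and 4 in Gde2KO, against 0 in each with the effect threshold as well. Leaving out 1 library gave 0 to 1 in WT, with Hmgcs1 passing without 4-month WT 2 or 3 or 19-month WT C, and 0 to 1 in Gde2KO, with Idi1 passing without 4-month Gde2KO 1 or 2 or 19-month Gde2KO A. Leaving out both libraries of low depth gave 1 gene in Gde2KO, again Idi1. Each of these sits near the effect threshold, at -0.63 for Hmgcs1 in WT and -0.69 for Idi1 in Gde2KO. The mean genotype difference over the 7 genes at 4 months ran from 0.03 to 0.33 as single libraries were left out, being lowest without Gde2KO 3 and highest without WT 1. Depth limits the 19-month libraries A most.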
